A study of Mus musculus with 12 samples.

Results

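The genes described here are 10 markers used to recognise fibroblasts and their subtypes: Pdgfra, Pdgfrb, Thy1, Nt5e, Eng, Cd34, Ly6a, Dpp4, Pi16 and S100a4. They were chosen by name from the 33246 genes of the count table, and 9 of the 10 passed the filter on low counts; Dpp4 did not. RNA was sequenced from fibroblasts of the ears of C57BL/6 mice, which had been cultured for 48 h on alginate gels carrying the adhesion peptide RGD. The gels were elastic (covalently crosslinked) or viscoelastic and slow to relax (ionically crosslinked), and had a stiffness of 2 kPa or 20 kPa. This gave 4 groups of 3 samples, named 2 kPa Elastic, 20 kPa Elastic, 2 kPa Viscoelastic and 20 kPa Viscoelastic, with no genetic change or drug in any of them. The ears came from male and female animals 1 month old, the cells were at passage 2, and every group shared the same serum-containing medium. Neither the number of animals behind each sample nor the pooling of animals was stated, and the cells were a primary culture, not a sorted population.

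Fibroblasts have no single defining surface protein and are recognised by sets of markers. Pdgfra and Pdgfrb encode the receptors for platelet-derived growth factors, tyrosine kinases that drive proliferation and migration of mesenchymal cells. Thy1, Nt5e and Eng encode CD90, CD73 and CD105, which are used together to define mesenchymal stromal cells. Cd34, Ly6a, Dpp4 and Pi16 mark subsets of skin and adventitial fibroblasts with progenitor features, and S100a4, long known as fibroblast-specific protein, is also made by other cell types such as macrophages.

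The promoters of 3 members are shown because their RNA followed different patterns across the gels: Nt5e was lower on viscoelastic gels at both stiffnesses, Cd34 was high on the 20 kPa Elastic gels, and S100a4 was low on the 2 kPa Elastic gels. Each window runs from 250 bases before to 50 bases after the start that RefSeq gives the gene on GRCm38.p6, at chr9:88327359-88327658 for Nt5e, chr1:194938571-194938870 for Cd34 and chr3:90603520-90603819 for S100a4, all on the plus strand. For Nt5e the RefSeq start lies 412 bases downstream of the start in the GENCODE annotation used for gene positions here, so its whole window falls inside the GENCODE gene. Capitals mark matches, on either strand, to any of 5 motifs: the TATA box TATAAA, the CCAAT box CCAAT, the GC box GGGCGG, the AP-1 motif TGANTCA and the TEAD motif GGAATG.
Nt5e: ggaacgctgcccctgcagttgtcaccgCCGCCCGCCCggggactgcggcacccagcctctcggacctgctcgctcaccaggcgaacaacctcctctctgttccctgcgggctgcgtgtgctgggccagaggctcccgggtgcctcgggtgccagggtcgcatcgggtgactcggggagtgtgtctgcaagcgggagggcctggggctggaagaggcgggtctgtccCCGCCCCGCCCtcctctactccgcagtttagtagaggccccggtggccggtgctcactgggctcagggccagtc
Cd34: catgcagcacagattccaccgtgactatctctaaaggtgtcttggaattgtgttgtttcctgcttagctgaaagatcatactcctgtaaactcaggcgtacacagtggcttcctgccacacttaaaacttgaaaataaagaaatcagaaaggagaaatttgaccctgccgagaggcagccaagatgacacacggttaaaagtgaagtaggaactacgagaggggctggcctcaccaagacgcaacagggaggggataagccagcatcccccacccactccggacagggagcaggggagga
S100a4: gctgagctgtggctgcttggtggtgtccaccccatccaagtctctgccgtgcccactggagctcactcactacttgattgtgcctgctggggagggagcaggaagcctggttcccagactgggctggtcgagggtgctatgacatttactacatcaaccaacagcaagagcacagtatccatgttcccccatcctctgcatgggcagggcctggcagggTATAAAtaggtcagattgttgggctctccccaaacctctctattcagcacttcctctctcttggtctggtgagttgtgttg
The Nt5e window held 4 GC boxes in 2 overlapping pairs and had a GC content of 71%. The S100a4 window held a TATA box that began 31 bases before the start, and its GC content was 55.3%. No match to these letters lay in the Cd34 window, whose GC content was 50%. Among 32851 RefSeq windows of the same length, a GC box was found in 35.7%, a TATA box in 13.6%, a CCAAT box in 37.4%, the TEAD motif in 14.7% and the AP-1 motif in 7.81%.

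The 12 samples held 36626221 to 43612804 counts each, and 14542 genes were tested. The 17 general fibroblast markers, which include the members Pdgfra, Pdgfrb and Thy1, summed to 59510 to 84730 CPM, the TMM-normalized read count relative to library size. Fn1 alone gave 30700 to 56690 CPM of this, and Col1a1 5686 to 6793 CPM. The sum of the 17 markers differed by group, and its highest and lowest groups were those of Fn1, its largest part. Samples of the 2 kPa Elastic group (76650 to 84730) lay above all others, and those of the 20 kPa Viscoelastic group (59510 to 62050) below all others. Between them, the 20 kPa Elastic range (69850 to 73380) and the 2 kPa Viscoelastic range (67320 to 71790) overlapped. In the highest and the lowest group Fn1 had means of 52950 and 31650 CPM, while Col1a1, at 6101 and 6231 CPM, did not share this fall. Twist2 stayed at 4.77 to 7.495 CPM and Tcf21 was at 0 in all samples. The defining markers of several other cell types were near 0, since Pecam1, Cdh5 and Emcn (endothelium), Ptprc (leukocytes), and Krt5 and Epcam (keratinocytes) each stayed under 1 CPM everywhere. The sums over the whole lists were 4.03 to 5.70 CPM for 10 endothelial markers, 8.70 to 13.8 CPM for 11 leukocyte and macrophage markers, 14.7 to 23.8 CPM for 8 keratinocyte markers and at most 0.456 CPM for 7 skeletal muscle markers.

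Cartilage genes were an exception. Col2a1, the main collagen of cartilage, was at 2396 to 3471 CPM, so RNA of cartilage genes was present beside that of fibroblast genes. The 9 chondrocyte markers summed to 5865 to 7682 CPM on 2 kPa Elastic gels, 5912 to 7707 CPM on 2 kPa Viscoelastic gels and 6325 to 7816 CPM on 20 kPa Viscoelastic gels. On 20 kPa Elastic gels the sum was lower in every sample than in any other, at 5304 to 5540 CPM, and Matn1 stayed under 1 CPM everywhere. The sum of the 11 pericyte and smooth muscle markers was highest on 20 kPa Elastic gels, at 1174 to 1432 CPM. It was 1019 to 1144 CPM on 2 kPa Elastic, 1007 to 1071 CPM on 2 kPa Viscoelastic and 857 to 999 CPM on 20 kPa Viscoelastic gels. Gene by gene this list was split for stiffness on elastic gels, with 6 positive and 5 negative values and a median log2 fold change of 0.020. Abcc9, Kcnj8 and Des, which are typical of pericytes and muscle, were under 1 CPM everywhere, while Acta2, Tagln and Cnn1, genes of contractile cells and of myofibroblasts, were called up between the elastic groups. In bulk RNA, fewer cells of a type and less RNA per cell cannot be told apart.

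**Figure D1:**
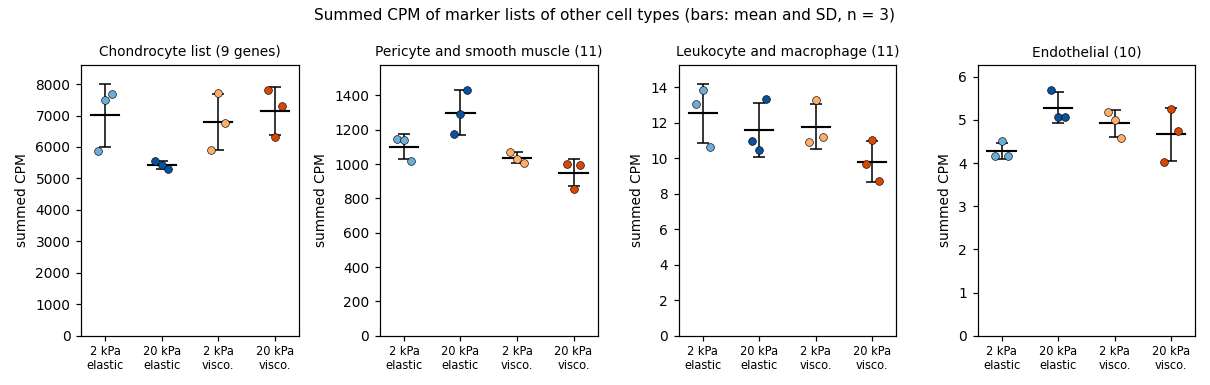
Summed CPM of marker lists of 4 other cell types in each sample, by gel group (points are samples, bars are mean and SD of 3). Chondrocyte markers summed to 5304 to 5540 CPM on 20 kPa Elastic gels, under all other samples, and endothelial markers stayed at 4.03 to 5.70 CPM.

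Levels of different genes were compared only as CPM per kilobase of exon. S100a4 stood first with a mean of 249 CPM per kb over the 12 samples, followed by Pdgfra with 93.0, Ly6a with 92.8, Thy1 with 74.3 and Pdgfrb with 52.7. Nt5e (11.1 CPM per kb), Eng (9.35) and Cd34 (3.46) formed a lower tier. Pi16, at 0.0682 CPM per kb, and Dpp4, at 0.00695, were close to absent. The ranges over samples of Pdgfra (81.2 to 110.6 CPM per kb), Ly6a (64.4 to 132.4) and Thy1 (59.6 to 97.6) overlapped, as did those of Thy1 and Pdgfrb (46.0 to 60.6), of Nt5e (6.48 to 17.1) and Eng (8.43 to 10.9), and of Pi16 and Dpp4. Within a sample, however, Thy1 was above Pdgfrb and Pi16 above Dpp4 in all 12, while Pdgfra was above Ly6a in 5 of 12, Ly6a above Thy1 in 10 of 12 and Nt5e above Eng in 8 of 12, so the last 3 orders varied between samples. S100a4 (196.9 to 277.7) and Cd34 (2.39 to 6.15) overlapped with no neighbour. Of the S100a4 exons, 302 of 584 bases are shared with Gm42674 on the same strand, so its counts may be split or lost. The strand setting was not stated, so reads of Pdgfra, Eng, Cd34, Pi16 and Dpp4 cannot be told apart from those of opposite-strand genes that overlap their exons, such as the 61 bases Eng shares with Fpgs.

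**Figure D2:**
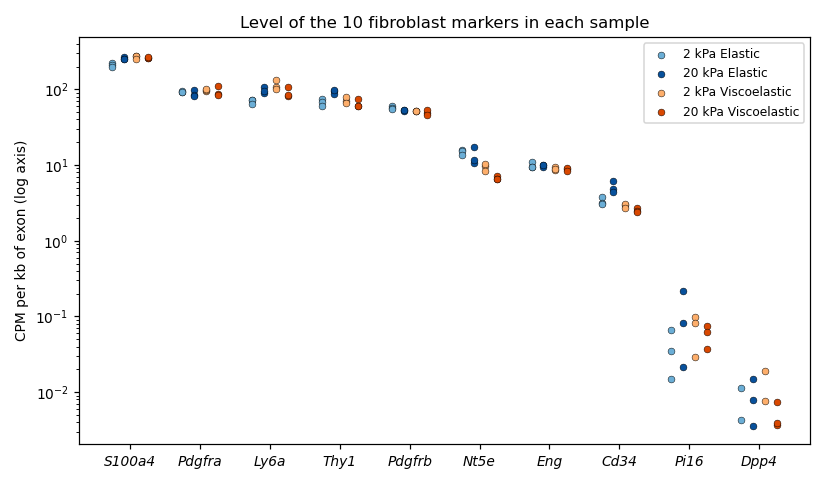
Level of each of the 10 markers in each sample as CPM per kb of exon on a log axis, coloured by gel group, with genes ordered by their mean. S100a4 led at a mean of 249 CPM per kb, while Pi16 and Dpp4 lay below 1 CPM per kb, and samples with no Dpp4 count are not drawn.

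The counts were compared by gel type at each stiffness and by stiffness on each gel type, in 1 model over all 12 samples (edgeR's quasi-likelihood test, genes called at a Benjamini-Hochberg adjusted p under 0.05 over the 14542 genes). The comparisons share samples in pairs, so they are given side by side and not as independent repeats. Viscoelastic against elastic gels at 2 kPa gave 3 called members. Ly6a and S100a4 rose, against a background of 8.77% of all genes called up, and Nt5e fell, against 11.1% called down. At 20 kPa no member rose (background 17.4%) and 3 fell, Cd34, Thy1 and Nt5e (background 16.1%). Raising the stiffness on elastic gels raised 4 of the 9, Cd34, Thy1, Ly6a and S100a4 (background 6.81%), and lowered none (background 7.14%). On viscoelastic gels the same step changed no member by edgeR (background 1.58% up and 0.695% down). An unadjusted p under 0.05 was reached by 2 members, Nt5e and Ly6a, and by 2768 of all 14542 genes. DESeq2 called 1 member there, Nt5e, among 757 genes in all, against 331 genes by edgeR. Without the filter on low counts edgeR called Nt5e and Ly6a there, among 653 genes.

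Groups of 3 that did not overlap were found for 6 of the 9 tested members between gel types at 2 kPa, where 36.3% of all genes separated, and for 4 at 20 kPa, where 49.9% did. For stiffness these were 5 of 9 on elastic gels (background 35.6%) and 2 of 9 on viscoelastic gels (background 22.3%). Over the 9 tested members the median log2 fold change was 0.078 for gel type at 2 kPa, -0.15 for gel type at 20 kPa, 0.29 for stiffness on elastic gels and -0.15 for stiffness on viscoelastic gels. The medians over all genes were -7.5e-05, 0.016, -0.0083 and 0.0079 in the same order.

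**Figure D3:**
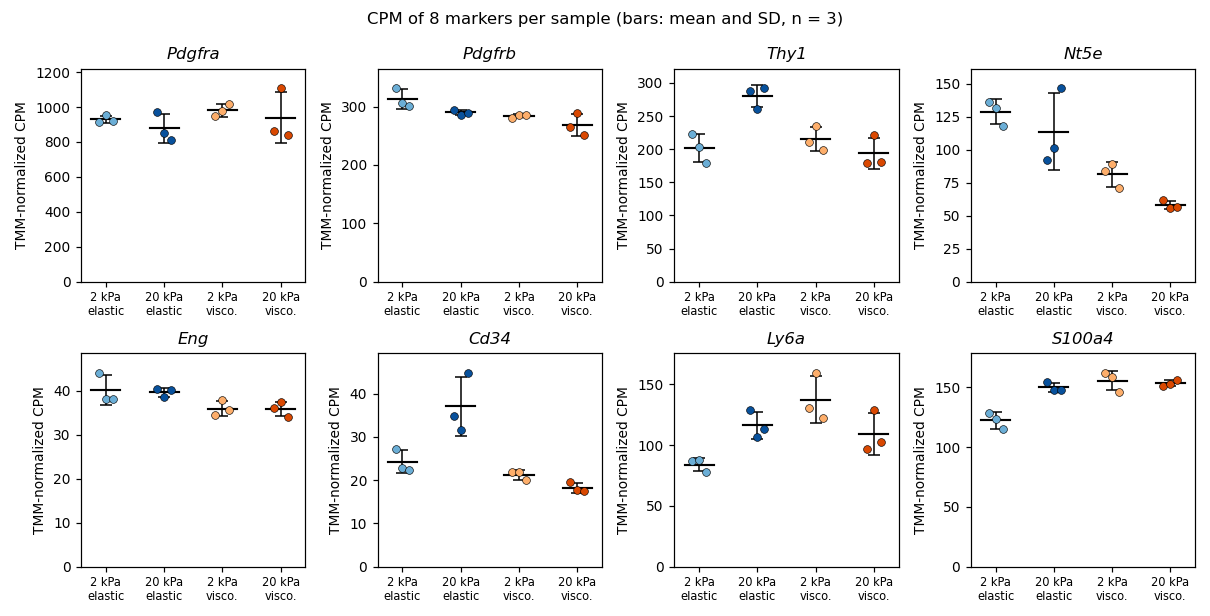
TMM-normalized CPM of 8 markers in each sample by gel group, with axes from 0 (points are samples, bars are mean and SD of 3). Nt5e lay at 55.8 to 89.4 CPM in the viscoelastic samples and at 92.5 to 147 CPM in the elastic ones, and Cd34 stood apart on 20 kPa Elastic gels at 31.7 to 44.8 CPM.

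Neither growth factor receptor passed the test in any comparison. Pdgfra (chr5:75152292-75198215, plus strand, GRCm38) encodes the alpha receptor, which binds PDGF-AA and PDGF-CC among others. It gave 916, 953 and 919 CPM on 2 kPa Elastic gels, 946, 976 and 1020 CPM on 2 kPa Viscoelastic, 970.1, 851 and 814 CPM on 20 kPa Elastic, and 865, 1109 and 843 CPM on 20 kPa Viscoelastic gels. The groups overlapped in all 4 comparisons. The 95% intervals of its log2 fold change were -0.13 to 0.28 for gel type at 2 kPa, -0.11 to 0.30 for gel type at 20 kPa, -0.29 to 0.12 for stiffness on elastic gels and -0.27 to 0.14 for stiffness on viscoelastic gels.

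Pdgfrb, the beta receptor and a marker shared with pericytes, was at 332, 306 and 301 CPM on 2 kPa Elastic gels and at 281, 286 and 286 CPM on 2 kPa Viscoelastic gels. It was at 295, 286 and 289 CPM on 20 kPa Elastic gels and at 266, 289 and 252 CPM on 20 kPa Viscoelastic gels. The 2 kPa Elastic samples lay above all the others, with adjusted p of 0.129 for gel type at 2 kPa (log2 fold change -0.14, 95% interval -0.27 to -0.0061) and 0.259 for stiffness on elastic gels (-0.11, -0.24 to 0.022). The interval for gel type at 20 kPa was -0.24 to 0.022 and that for stiffness on viscoelastic gels -0.21 to 0.050.

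The ligands and partners of these receptors, 19 genes that were all tested, were called up in 1 and down in 3 cases between gel types at 2 kPa, and up in 5 and down in 3 at 20 kPa. Stiffness raised none and lowered 3 on elastic gels, and raised 1 and lowered none on viscoelastic gels. Pdgfa, a ligand of the alpha receptor, was 37.4 CPM ± 2.74 (SD, n = 3) in the 20 kPa Elastic group and 51.4 CPM ± 4.45 in its viscoelastic counterpart, a rise of 0.46 on the log2 scale (edgeR adjusted p = 0.000458). Lrp1, an endocytic receptor that binds PDGF receptor beta, fell by 0.57 on viscoelastic gels at 2 kPa (adjusted p = 0.00278), and Cbl, a ubiquitin ligase that removes activated receptors, fell by 0.55 at 20 kPa (adjusted p = 0.00423). Pdgfb, whose homodimer both receptors bind, stayed under 1 CPM in every sample.

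Thy1 encodes a GPI-anchored glycoprotein of the fibroblast surface, and lies at chr9:44043384-44048579 on the plus strand. Its values were 223, 203 and 179.8 CPM on 2 kPa Elastic gels, 210.4, 235 and 199 CPM on 2 kPa Viscoelastic, 287, 261 and 292 CPM on 20 kPa Elastic and 179, 221 and 181 CPM on 20 kPa Viscoelastic gels. The 20 kPa Elastic samples lay above all 9 others. Stiffness raised Thy1 1.39-fold on elastic gels (log2 fold change 0.47, SE 0.0951, edgeR adjusted p = 0.00447). At 20 kPa it was 1.45-fold lower on viscoelastic gels (log2 fold change -0.53, SE 0.0951, adjusted p = 0.000837). At 2 kPa the gel types overlapped, with a log2 fold change of 0.090 and a 95% interval of -0.11 to 0.29, and stiffness on viscoelastic gels gave -0.15 (-0.35 to 0.052).

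Nt5e, which encodes CD73, the ectoenzyme that turns extracellular AMP into adenosine, lies at chr9:88327197-88372092 on the plus strand. It gave 136, 132 and 118 CPM on 2 kPa Elastic gels and 83.6, 89.4 and 70.9 CPM on 2 kPa Viscoelastic gels. The 20 kPa Elastic samples spread from 92.5 and 102 to 147 CPM, and the 20 kPa Viscoelastic samples lay at 61.8, 55.8 and 56.9 CPM. All 6 viscoelastic samples were below all 6 elastic samples. The difference between gel types was 1.58-fold at 2 kPa (log2 fold change -0.66, SE 0.134, edgeR adjusted p = 0.00341) and 1.95-fold at 20 kPa (-0.97, SE 0.135, adjusted p = 0.000191). Replicate 3 of the 20 kPa Elastic group was the high sample, and without it the difference at 20 kPa was -0.74 and still passed.

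The stiffness effect on Nt5e was less firm. On elastic gels the log2 fold change was -0.18 (adjusted p = 0.402), but without replicate 3 of the 20 kPa Elastic group it was -0.41 (adjusted p = 0.0171). On viscoelastic gels the samples did not overlap, and the log2 fold change of -0.48 had an adjusted p of 0.0689, which came to 0.0150 with DESeq2, 0.00102 without the filter on low counts and 0.0162 without that same replicate. The interaction of stiffness with gel type, the difference between the 2 stiffness effects, was -0.30 (95% interval -0.71 to 0.10).

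Nt5e shares its pathway with enzymes and carriers of extracellular nucleotides, 12 of whose 14 listed genes were tested, Nt5e itself not being on the list. At each stiffness 2 of the 12 rose and 4 fell on viscoelastic gels, and stiffness on elastic gels raised 1 and lowered 2. For stiffness on viscoelastic gels none of the 12 was called. There 1 had an unadjusted p under 0.05, as did 2768 of all 14542 genes. Enpp1, which makes AMP from ATP outside the cell, was 274 CPM ± 12.4 in the 2 kPa Elastic group and 133 CPM ± 2.44 in its viscoelastic counterpart, a fall of 1.05 on the log2 scale (edgeR adjusted p = 3.53e-05), and fell by 0.76 at 20 kPa (adjusted p = 0.000219). Slc29a1, a nucleoside transporter that carries adenosine, fell by 0.54 at 2 kPa (adjusted p = 0.000323) and by 0.58 at 20 kPa (adjusted p = 0.000156). Adora2b, a receptor for adenosine, rose from 1.23 to 2.98 CPM with stiffness on elastic gels (log2 fold change 1.27, adjusted p = 0.0012), and Entpd1, the CD39 enzyme upstream of Nt5e, stayed under 1 CPM everywhere.

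Eng (chr2:32646595-32682669, plus strand) encodes endoglin, an auxiliary receptor for TGF-beta and BMP ligands. Its values were 44.0, 38.2 and 38.0 CPM on 2 kPa Elastic gels, 34.4, 37.8 and 35.6 CPM on 2 kPa Viscoelastic, 40.4, 38.4 and 40.1 CPM on 20 kPa Elastic and 36.0, 37.4 and 34.1 CPM on 20 kPa Viscoelastic gels. The viscoelastic samples lay below the elastic ones at each stiffness, with a 1.12-fold difference at 2 kPa and a 1.11-fold difference at 20 kPa. The log2 fold changes of -0.16 at 2 kPa (adjusted p = 0.106) and -0.15 at 20 kPa (adjusted p = 0.104) were not called, and neither stiffness effect was, with 95% intervals of -0.16 to 0.12 on elastic and -0.15 to 0.14 on viscoelastic gels.

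Of 16 genes of the endoglin complex and BMP9 signalling, 14 were tested, and Eng is not on this list. On viscoelastic gels 1 rose and 1 fell at 2 kPa, 1 rose and 3 fell at 20 kPa, and stiffness raised 1 and lowered none on each gel type. Tgfbr1, the type I TGF-beta receptor, fell by 0.49 on viscoelastic gels at 20 kPa (edgeR adjusted p = 0.000464), where Id2, a BMP target, rose by 0.28 (adjusted p = 0.00156). Acvrl1, the ALK1 receptor that pairs with endoglin, rose by 0.40 at 2 kPa (adjusted p = 0.00266). Their ligands Gdf2 and Bmp10 were under 1 CPM in every sample. A wider list of 13 mesenchymal stromal cell surface markers holds Thy1, Nt5e, Eng and Ly6a too. Of the 13, 1 rose and 4 fell on viscoelastic gels at 2 kPa, and 1 rose and 5 fell at 20 kPa. With stiffness 3 rose and 3 fell on elastic gels. On viscoelastic gels none was called for stiffness, with 4 at an unadjusted p under 0.05 (2768 of all 14542 genes). Alcam, an adhesion molecule, fell by 1.17 at 2 kPa (adjusted p = 8.32e-06). Cd44, the hyaluronan receptor, fell by 0.80 at 20 kPa (adjusted p = 0.00054), and Mcam, an adhesion molecule also found on pericytes, fell by 0.50 there (adjusted p = 0.00109).

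Cd34, a sialomucin of the cell surface, lies at chr1:194938819-194961279 on the plus strand. It gave 27.3, 22.9 and 22.5 CPM on 2 kPa Elastic gels, 21.9, 22.0 and 20.0 CPM on 2 kPa Viscoelastic gels, 34.8, 31.7 and 44.8 CPM on 20 kPa Elastic gels and 19.5, 17.8 and 17.4 CPM on 20 kPa Viscoelastic gels. The 20 kPa Elastic samples were above all 9 others, and the 20 kPa Viscoelastic samples were below all 9 others. On elastic gels stiffness raised Cd34 1.53-fold (log2 fold change 0.61, SE 0.11, edgeR adjusted p = 0.00204). At 20 kPa it was 2.03-fold lower on viscoelastic gels (-1.02, SE 0.111, adjusted p = 8.67e-05), the farthest from 0 of the tested members in that comparison. At 2 kPa the log2 fold change was -0.19 (adjusted p = 0.254, 95% interval -0.43 to 0.051). On viscoelastic gels stiffness gave -0.22 (adjusted p = 0.31, 95% interval -0.46 to 0.020). Without replicate 3 of the 20 kPa Elastic group the difference at 20 kPa was -0.86 and the stiffness effect on elastic gels 0.46, and both stayed called.

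Cd34 and Thy1 were high in the same group in which the sums of pericyte and smooth muscle markers were high and the chondrocyte sum was low. Of the 8 tested chondrocyte markers, 4 fell and none rose with stiffness on elastic gels, and 5 rose and none fell on viscoelastic gels at 20 kPa. Of the 11 pericyte and smooth muscle markers, 4 rose and 1 fell with stiffness on elastic gels, and none rose and 6 fell on viscoelastic gels at 20 kPa. At 2 kPa the counts were none up and 1 down of the chondrocyte markers, and 4 up and 3 down of the smooth muscle markers, while no gene of either list was called for stiffness on viscoelastic gels. Cnmd, a cartilage gene, rose by 0.94 at 20 kPa (edgeR adjusted p = 0.000384), Tagln rose by 0.75 with stiffness on elastic gels (adjusted p = 0.000257), Cnn1 by 0.60 (adjusted p = 0.000264) and Acta2 by 0.57 (adjusted p = 0.000451). Markers of endothelium, which also expresses Cd34, stayed near 0 in all groups. The part of the chondrocyte and smooth muscle RNA in the changes of Cd34, Thy1 and the other members was not tested.

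Ly6a, which encodes the stem cell antigen Sca1, lies at chr15:74994877-74998031 on the minus strand. Its reads may be shared with close paralogs such as Ly6c1, so its counts are uncertain. It gave 86.7, 87.7 and 77.6 CPM on 2 kPa Elastic gels and 130.4, 160 and 123 CPM on 2 kPa Viscoelastic gels, and the groups did not overlap. On 20 kPa Elastic gels it gave 129, 107 and 113 CPM, and on 20 kPa Viscoelastic gels 97.1, 129 and 102 CPM, and these groups overlapped. The 2 kPa Elastic samples were below all 9 others. Viscoelastic gels raised Ly6a 1.64-fold at 2 kPa (log2 fold change 0.71, SE 0.113, edgeR adjusted p = 0.000752), and at 20 kPa the difference was -0.086 (95% interval -0.33 to 0.15). Stiffness raised it 1.38-fold on elastic gels (0.47, SE 0.113, adjusted p = 0.0129). That call was lost without replicate 3 of the 2 kPa Elastic group (0.41, adjusted p = 0.0586). On viscoelastic gels stiffness gave -0.33 (adjusted p = 0.128), which came to 0.0175 without the filter on low counts and to 0.0406 without replicate 2 of the 20 kPa Viscoelastic group (log2 fold change -0.46).

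The Ly6 family was sparse: 5 of its 23 genes were tested, Ly6a included, and 18 were under 1 CPM everywhere. On viscoelastic gels 2 rose and 1 fell at 2 kPa and 2 rose and none fell at 20 kPa. Stiffness raised 2 and lowered none on elastic gels, and raised 1 and lowered none on viscoelastic gels. Ly6c1 went from 6.44 CPM ± 0.200 on 2 kPa Elastic to 13.4 CPM ± 2.29 on 2 kPa Viscoelastic gels (log2 fold change 1.06, edgeR adjusted p = 0.000744). Ly6e, also a GPI-anchored member, fell by 0.49 there (adjusted p = 0.0268), and Lypd1 rose by 1.77 on viscoelastic gels at 20 kPa (adjusted p = 0.000214) from 1.28 to 4.39 CPM.

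The 2 members that define the universal fibroblast subset were nearly absent. Dpp4 (chr2:62330073-62412231, minus strand), a surface peptidase, held 22 counts over all 12 samples. These were 3, 0 and 1 on 2 kPa Elastic gels, 0, 2 and 5 on 2 kPa Viscoelastic, 4, 1 and 2 on 20 kPa Elastic and 2, 1 and 1 on 20 kPa Viscoelastic gels, and no difference between gels could be measured at this depth. Pi16 (chr17:29317680-29330593, plus strand), a secreted or membrane-bound peptidase inhibitor family protein, held 215 counts: 4, 17 and 8, then 8, 26 and 22, then 22, 6 and 56, and then 10, 20 and 16 in the same order of groups. The groups overlapped in every comparison, and replicate 3 of the 20 kPa Elastic group held the most counts. The log2 fold changes of Pi16 were 0.86 for gel type at 2 kPa, -0.85 for gel type at 20 kPa, 1.44 for stiffness on elastic gels and -0.27 for stiffness on viscoelastic gels, with edgeR adjusted p of 0.434, 0.31, 0.175 and 0.868. Without that replicate the difference at 20 kPa turned to 0.18 and the stiffness effect on elastic gels was 0.41. The latter was called without replicate 2 of the 20 kPa Elastic group (1.94, adjusted p = 0.0421) and without the filter on low counts (1.45, adjusted p = 0.0389).

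In the dipeptidyl peptidase family Dpp6 and Dpp10 stayed under 1 CPM everywhere, as Dpp4 did. Of 9 family members 6 were tested, none rose in any comparison, and 1 fell on viscoelastic gels at 2 kPa, 2 fell at 20 kPa, and 1 fell with stiffness on elastic gels. Fap, the fibroblast activation protein, was 24.5 CPM ± 3.67 on 2 kPa Elastic gels and 7.68 CPM ± 1.79 on 2 kPa Viscoelastic gels, a fall of 1.67 on the log2 scale (edgeR adjusted p = 6.29e-05). Prep and Dpp3, cytosolic peptidases, fell by 0.17 and 0.14 on viscoelastic gels at 20 kPa (adjusted p = 0.03 and 0.035).

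Of 21 markers of the universal Pi16+ Dpp4+ fibroblasts 17 were tested, and 4 of the 21 are members described above. On viscoelastic gels 5 rose and 4 fell at 2 kPa, and 1 rose and 7 fell at 20 kPa. Stiffness raised 9 and lowered 1 on elastic gels. On viscoelastic gels none was called for stiffness, with 5 of the 17 at an unadjusted p under 0.05 (2768 of all 14542 genes). The medians of the log2 fold change were 0.25, -0.36, 0.42 and -0.22 in that order. Mfap5, a microfibril protein, rose by 1.32 on viscoelastic gels at 2 kPa (edgeR adjusted p = 4.53e-05), from 8.11 CPM ± 1.15 to 20.3 CPM ± 3.25. Anxa3, an annexin, rose by 0.93 with stiffness on elastic gels (adjusted p = 6.57e-05), and Opcml, a cell adhesion molecule, fell by 0.97 on viscoelastic gels at 2 kPa (adjusted p = 0.000175). Dact2, Wnt2, Clec3b and Efhd1 stayed under 1 CPM in all samples.

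S100a4 (chr3:90603771-90606045, plus strand) encodes a calcium-binding protein of motile cells. It gave 129, 124 and 115 CPM on 2 kPa Elastic gels and 162, 159 and 146 CPM on 2 kPa Viscoelastic gels. On 20 kPa Elastic gels it gave 154, 148 and 147 CPM and on 20 kPa Viscoelastic gels 151, 153 and 157 CPM. The 2 kPa Elastic samples were below all 9 others, which lay within 146 to 162 CPM. On viscoelastic gels S100a4 rose 1.27-fold at 2 kPa (log2 fold change 0.35, SE 0.0587, edgeR adjusted p = 0.00108). It rose 1.23-fold with stiffness on elastic gels (0.29, SE 0.0587, adjusted p = 0.00425). The other comparisons gave 0.034 for gel type at 20 kPa (95% interval -0.091 to 0.16) and -0.020 for stiffness on viscoelastic gels (-0.14 to 0.11). S100a4 is short, and when transcript length and GC content were adjusted for, the value at 2 kPa was 0.17 with an adjusted p of 0.0595 and that at 20 kPa turned to -0.13.

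Of 17 listed S100 genes 11 were tested, S100a4 included. Among them is S100pbp, which encodes a protein that binds S100P and is no family member, and which was not called in any comparison. On viscoelastic gels 4 rose and 1 fell at 2 kPa, and 5 rose and none fell at 20 kPa. Stiffness raised 4 and lowered 3 on elastic gels, and raised 2 and lowered none on viscoelastic gels. S100a11 was 138 CPM ± 6.37 in the 2 kPa Elastic group and 202 CPM ± 10.6 in its viscoelastic counterpart (log2 fold change 0.55, edgeR adjusted p = 5.31e-05). S100b and S100a1, which chondrocytes also make, rose by 0.94 and 0.68 on viscoelastic gels at 20 kPa (adjusted p = 7.5e-05 and 0.000172), a comparison in which 5 of 8 tested chondrocyte markers rose. The part of cartilage RNA in these values was not tested.

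**Figure D4:**
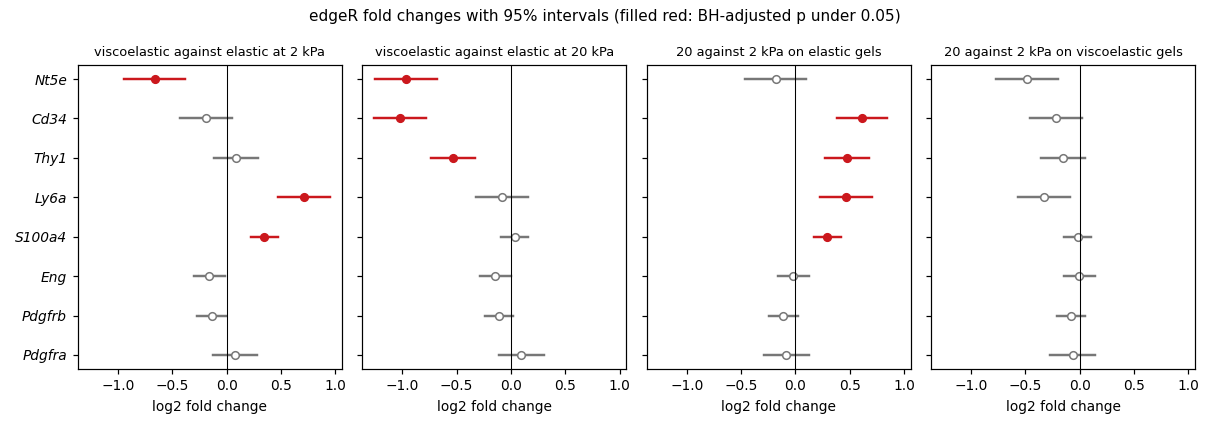
Log2 fold changes of 8 tested markers with 95% intervals in 4 comparisons (edgeR; filled red points have an adjusted p under 0.05, open grey points do not). Cd34 fell by 1.02 and Nt5e by 0.97 on viscoelastic gels at 20 kPa, 4 markers rose with stiffness on elastic gels and no point is filled for stiffness on viscoelastic gels.

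The stiffness effect differed between gel types for 4 of the 9 tested members, tested as the interaction in the same model. It was lower on viscoelastic gels for Cd34, Thy1, Ly6a and S100a4 (background 3.12% of all genes), and higher for none (background 4.45%). The differences on the log2 scale were -0.83 for Cd34 (SE 0.157, edgeR adjusted p = 0.00477), -0.80 for Ly6a (SE 0.159, adjusted p = 0.007), -0.62 for Thy1 (SE 0.134, adjusted p = 0.0109) and -0.31 for S100a4 (SE 0.0828, adjusted p = 0.032). The order of the groups was not the same for these genes. Cd34 and Thy1 were set apart by the 20 kPa Elastic samples, which were high, and Ly6a and S100a4 by the 2 kPa Elastic samples, which were low. For the 5 others the 95% intervals of the difference were -0.71 to 0.10 for Nt5e, -0.16 to 0.21 for Pdgfrb, -0.19 to 0.21 for Eng, -0.27 to 0.31 for Pdgfra and -3.75 to 0.32 for Pi16. The interaction of S100a4 was lost when any of 8 of the 12 samples was left out, with values of -0.33 to -0.27 and adjusted p of 0.0512 to 0.0799. It stayed called without replicate 1 of either elastic group and without replicate 2 or 3 of the 2 kPa Viscoelastic group.

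Of the markers of dermal fibroblast subtypes, Dpp4 is on the papillary list. Of 10 tested papillary markers of 12, on viscoelastic gels 1 rose and 2 fell at 2 kPa and 2 rose and 1 fell at 20 kPa. With stiffness 2 rose and 2 fell on elastic gels. On viscoelastic gels none was called for stiffness, with 2 of the 10 at an unadjusted p under 0.05 (2768 of all 14542 genes). Of 10 tested reticular and hypodermal markers of 11, on viscoelastic gels 3 rose and 4 fell at 2 kPa, and 4 rose and none fell at 20 kPa. At 20 kPa 9 of the 10 values were positive, the exception being Ly6a, which is on this list. With stiffness 1 rose and 4 fell on elastic gels. On viscoelastic gels none was called for stiffness, with 5 of the 10 at an unadjusted p under 0.05 (2768 of all 14542 genes). Rspo1, a Wnt agonist on the papillary list, rose by 1.23 at 2 kPa (edgeR adjusted p = 0.000209), Crabp1, a retinoic acid binding protein, by 1.02 with stiffness on elastic gels (adjusted p = 0.000295) and Axin2, a Wnt target, by 0.76 on viscoelastic gels at 20 kPa (adjusted p = 0.000576). On the reticular list Dlk1, a preadipocyte protein, fell by 0.69 with stiffness on elastic gels (adjusted p = 0.000332), Pparg, the regulator of fat cell formation, rose by 0.43 on viscoelastic gels at 20 kPa (adjusted p = 0.00098) and Fabp4, a fatty acid carrier, fell by 0.82 at 2 kPa (adjusted p = 0.00147). Of 16 tested general fibroblast markers none rose and 2 fell at 2 kPa, 5 rose and 4 fell at 20 kPa, 3 rose and 2 fell with stiffness on elastic gels and 1 rose with stiffness on viscoelastic gels. Lum, a collagen-binding proteoglycan of that list, rose by 0.70 on viscoelastic gels at 20 kPa (adjusted p = 0.0014).

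Ratios of counts within a library need no scaling between libraries, and 3 were computed after the values had been seen. The ratio of Nt5e to S100a4 was 1.05 ± 0.0222 (SD, n = 3) on 2 kPa Elastic, 0.521 ± 0.0398 on 2 kPa Viscoelastic, 0.760 ± 0.209 on 20 kPa Elastic and 0.379 ± 0.0256 on 20 kPa Viscoelastic gels. The ratio of Cd34 to Ly6a was 0.288 ± 0.0268 and 0.156 ± 0.0162 at 2 kPa, and 0.321 ± 0.0661 and 0.170 ± 0.0316 at 20 kPa, on elastic and viscoelastic gels. Both ratios were lower in all viscoelastic than in all elastic samples, as the CPM of Nt5e alone was. Since the values were known beforehand, this separation is a description only. Such ratios do not remove effects of transcript length. The ratio of Pdgfra to Pdgfrb was 2.98 ± 0.188 and 3.45 ± 0.103 at 2 kPa and 3.03 ± 0.243 and 3.48 ± 0.315 at 20 kPa, and at 20 kPa its ranges overlapped.

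**Figure D5:**
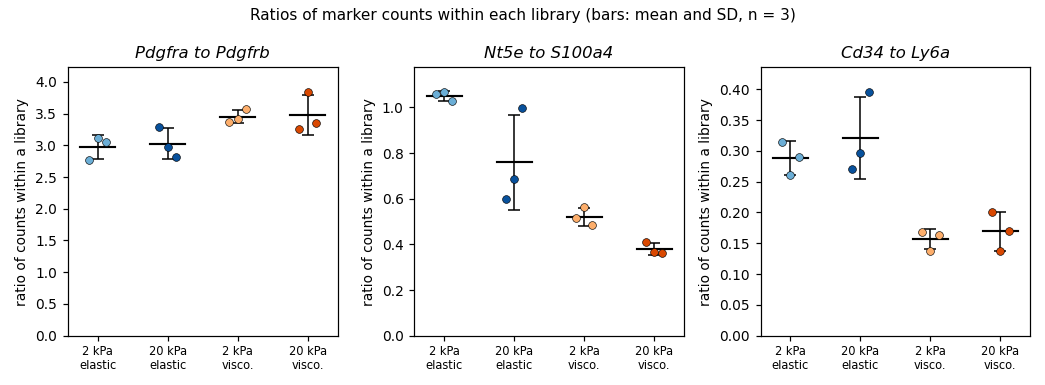
Ratios of marker counts within each library by gel group (points are samples, bars are mean and SD of 3, axes from 0). The ratio of Cd34 to Ly6a was 0.138 to 0.201 in the viscoelastic samples and 0.261 to 0.396 in the elastic ones.

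The genes whose log2 CPM followed each member most closely over the 12 samples were sought among 9138 genes with a mean of at least 10 CPM. For Nt5e these were Slc29a1 (Pearson r = 0.98) and Glg1 (0.965), and for Cd34 Itga3 (0.97) and Tnc (0.965). Eng was followed by Cdipt (0.969) and Tmem119 (0.962), Ly6a by Mpp1 (0.955), and Thy1 by Emilin2 (0.928) and Timeless (0.927). S100a4 was nearest to Lurap1l (0.938) and Lgals9 (0.931), Pdgfrb to Pcdhga12 (0.942) and Sema5a (0.941), Pdgfra to Prr3 (0.916) and Psen2 (0.891), and Pi16 to Ankrd11 (0.822) and Pon2 (0.816). These are descriptions of 12 samples that share 4 groups and their libraries.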

How the data were processed

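RNA-seq of 12 samples, 3 per group, was analysed from the raw counts per gene that the authors deposited in 1 table, after trimming with Trimmomatic, alignment to mm10 with STAR and counting with featureCounts on a GENCODE annotation. The release, the strand setting and the treatment of reads with several positions are not given in the sources used here. The study calls the samples biological replicates, and p-values measure the spread between them. Counts were tested with edgeR 4.0.16 (R 4.3.3): filterByExpr (minimum count 10, minimum total 15), TMM scaling, 1 coefficient per group over all samples, quasi-likelihood test, Benjamini-Hochberg adjustment, called under 0.05. CPM are TMM-normalized, with a prior count of 2 on the log2 scale for the search of similar genes. The biological coefficient of variation was 7.50%. SE was the log2 fold change divided by the root of F. Totals were 36626221 to 43612804 counts, and counting error weighs most on Pi16 and Dpp4. Positions and exon lengths come from GENCODE on GRCm38 (mm10), matched by symbol.

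All 10 members were named. From each of the 19 other gene lists, counts and up to 3 genes with the lowest adjusted p were taken, and for each member the 2 genes most like it, except that the second gene for Ly6a is not reported here. Genes at the ends of a range or of near 0 level were named after their values were seen. Members and lists were chosen with earlier results of these data known. The fit was tested on data simulated with the same dispersion for all genes. For gel type at 2 kPa it recovered 36% of 1.25-fold, 78% of 1.5-fold and 100% of 2-fold changes. Changes under 1.25-fold were not simulated. Alternatives were DESeq2 1.42.0, its size factors, total counts, no filter, a length and GC correction, the replicate number as a block, fits of only the 2 groups compared, and each sample left out.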

Additional observations from a re-analysis of the deposited data

Results flagged for a closer look

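Of the 9 tested members, 4 had a stiffness effect that differed between elastic and viscoelastic gels by edgeR's test of the interaction. It was lower on viscoelastic gels in all 4, against 3.12% of all genes called lower and 4.45% called higher. The difference was -0.83 on the log2 scale for Cd34 (adjusted p = 0.00477), -0.80 for Ly6a (adjusted p = 0.007), -0.62 for Thy1 (adjusted p = 0.0109) and -0.31 for S100a4 (adjusted p = 0.032). The S100a4 call was lost when any of 8 of the 12 samples was left out. In each of them the 20 kPa Elastic mean was above the 2 kPa Elastic mean and the 20 kPa Viscoelastic mean was below the 2 kPa Viscoelastic mean. None of the 4 falls on viscoelastic gels was called in the main fit. Their edgeR adjusted p were 0.31 for Cd34, 0.128 for Ly6a, 0.414 for Thy1 and 0.891 for S100a4. The S100a4 value of -0.020 turned to 0.011 without 2 kPa Viscoelastic replicate 1. Groups of 3 samples are too small for the search for single outlying samples, so none was made.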

How the results depend on the processing

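The calls of Cd34 and Thy1 for gel type at 20 kPa, stiffness on elastic gels and the interaction, of Nt5e for gel type at both stiffnesses, and of Ly6a for gel type at 2 kPa and the interaction held under all alternatives run. For stiffness on viscoelastic gels no member was called, against 1 with DESeq2, 2 without the filter on low counts and 0 to 1 with a sample left out, while 3 to 5 were called for stiffness on elastic gels and 3 to 4 for the interaction. The S100a4 value for gel type at 20 kPa turned to -0.13 with the length and GC correction, with or without the replicate block. Eng values near 0 changed sign: the interaction to -0.0047 with DESeq2, -0.0053 with its size factors, -0.031 with the correction and -0.032 with correction and block, stiffness on viscoelastic gels to 0.0026 with total counts and 0.034 with the correction (also with the block), and stiffness on elastic gels to 0.065 and 0.066 with the correction without and with the block. The cause was not tested.

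With samples left out, values that crossed 0 ranged, for gel type at 20 kPa, from -0.040 to 0.17 (Pdgfra) and -1.35 to 0.18 (Pi16), and for stiffness on elastic gels from -0.053 to 0.056 (Eng). For stiffness on viscoelastic gels they ranged from -0.20 to 0.0090 (Pdgfra), -0.035 to 0.033 (Eng), -0.64 to 0.053 (Pi16) and -0.062 to 0.011 (S100a4). For the interaction they ranged from -0.12 to 0.090 (Pdgfra), -0.026 to 0.072 (Pdgfrb) and -0.060 to 0.050 (Eng).

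The replicate numbers were not taken to pair the samples: same-numbered samples deviated with r of -0.16 to 0.308, over 0.1 in 2 of 12 pairs. Both of these were between the viscoelastic groups (0.184 and 0.308, with 0.048 for replicate 3). Whether these groups share a replicate structure was not tested. The replicate block left the member counts at 3, 3, 4, 0 and 4. Over all genes, stiffness on viscoelastic gels called 331, against 757 with DESeq2, 653 without the filter, 154 with the replicate block, 95 with block and correction and 38 with only the 2 groups. Without 20 kPa Viscoelastic replicate 3 it called 9, without replicate 1 of that group 36, without 2 kPa Viscoelastic replicate 1 or 2 127 and 219, and without replicate 2 of the 2 kPa or 20 kPa Elastic group 173 and 167. Without 2 kPa Elastic replicate 1 the counts were 1545 for gel type at 2 kPa (2892 in all samples), 1167 for stiffness on elastic gels (2029) and 670 for the interaction (1100), and without its replicate 2 they were 1924 and 1341 for the first 2. Without 20 kPa Elastic replicate 3 gel type at 20 kPa called 3177 (4866) and stiffness on elastic gels 1063, and without 20 kPa Viscoelastic replicate 1 the interaction called 727. Scaling by total counts alone gave 1675 up and 1258 down for gel type at 2 kPa, against 1275 and 1617. Depth limits Pi16 and Dpp4, which held 215 and 22 counts.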

Other observations

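The sums of small lists of other cells of the ear also differed between gels, at low levels. The 10 Schwann cell and melanocyte markers, of which 7 were tested, summed to 60.1 to 62.5 CPM on 20 kPa Elastic gels, below 68.7 to 76.3 CPM on 2 kPa Viscoelastic, 88.4 to 90.8 CPM on 2 kPa Elastic and 85.1 to 107 CPM on 20 kPa Viscoelastic gels. Most of this sum was S100b, which chondrocytes also make, at 42.6 CPM ± 2.27 on 20 kPa Elastic gels and 81.9 CPM ± 12.1 on 20 kPa Viscoelastic gels. No other of the 7 tested genes was called between these groups. Sox10, Dct, Tyr and Mlana stayed under 1 CPM everywhere. Mbp, a myelin gene, rose by 0.61 on viscoelastic gels at 2 kPa (edgeR adjusted p = 0.0306). It was the only one of the 7 tested to be called up there, while 1 was called down. In that comparison 3 of the 7 values were positive and 4 negative. Of 6 adipocyte markers 2 were tested, Pparg and Fabp4, and Adipoq, Plin1, Cidec and Lep stayed under 1 CPM. The 6 summed to 33.4 to 35.3 CPM on 2 kPa Elastic and 24.2 to 27.0 CPM on 20 kPa Elastic gels. They summed to 28.6 to 31.1 CPM on 2 kPa Viscoelastic and 28.6 to 36.0 CPM on 20 kPa Viscoelastic gels.

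Trp63, a transcription factor of keratinocytes, rose by 0.52 on viscoelastic gels at 2 kPa (edgeR adjusted p = 0.00302). Tek and Kdr, receptors of endothelial cells, rose there by 1.06 and 0.85 (adjusted p = 0.0076 and 0.0184). They were the only tested genes of their lists with positive values in that comparison. The values were negative for 5 of 6 keratinocyte and 4 of 6 endothelial markers, none of which was called. Mrc1, a macrophage receptor under 1 CPM everywhere, fell by 1.08 on viscoelastic gels at 20 kPa (adjusted p = 0.0395).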
